A study of Mus musculus with 6 samples.

Results

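DNA replication and S-phase genes are described here in mouse regulatory T cells (Tregs), a CD4 T cell type that needs the transcription factor Foxp3. The 38 genes were taken by symbol from the 55840 genes of the deposited table, and all 38 had enough counts to be tested among the 14919 genes that passed the count filter. The series compared Tregs of spleen and lymph nodes labelled WT with Tregs labelled Exon2KO, which the series text calls Foxp3 with a delta 2 mark, by sequencing RNA from 3 libraries of each genotype. The labels name no other allele, no strain, age, sex or agent, and do not say how the cells were sorted or whether organs or animals were pooled. The column names number the libraries 2, 6 and 20 in both genotypes, so libraries are named here by genotype and number.

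DNA replication begins with licensing, in which the origin recognition complex, Cdc6 and Cdt1 load the ring-shaped Mcm2 to Mcm7 helicase onto DNA in G1. At the start of S phase, Cdc45 and the GINS complex join the Mcm ring to form the active helicase, polymerases copy the opened strands, and the sliding clamp Pcna tethers them to DNA. Enzymes of nucleotide metabolism supply the building blocks. Many of these genes are transcribed under the control of E2F factors at the G1/S boundary, so their RNA is high in cycling cells and low in resting ones. In Tregs, as in other T cells, the program marks the cells that are dividing.

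Between the genotypes, no replication gene passed in the plain comparison of 3 WT with 3 Exon2KO libraries, beside 2.33% of all tested genes. A log2 fold change below 0 was found for 37 of the 38 (97.4%), beside 48.2% of all tested genes. With WT 20 left out, 14 of the 38 were below 0, with a median of 0.059. With any other library left out, 29 to 38 were. When libraries of the same number were compared with each other, 7 genes fell in Exon2KO: Tk1, Lig1, Rfc3, Cdc45, Rrm1, Mcm6 and Pole. That is 18.4% of them, beside 5.79% of all tested genes called lower. The count was 0 without both libraries numbered 2, where 1.14% of all tested genes were called lower, 8 without both numbered 6 (5.96%) and 1 without both numbered 20 (3.45%). It was 2 with DESeq2 and the same pairing (4.04%). A further difference lay between the column numbers. In both genotypes library 20 held the most RNA of 33 of the 38 genes (86.8%), beside 20.1% of all tested genes, and 24 genes (63.2%) differed between the numbers in edgeR's quasi-likelihood F test, beside 10.4%. In bulk RNA, fewer cells in S phase and less replication RNA per cell cannot be told apart.

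Total counts ran from 17998216 to 21003496 per library, and 3 counts corresponded to 0.141 to 0.169 CPM (counts scaled to a common library total), so every replication gene lay well above the counting floor. Levels below are CPM on the scaled library size (TMM). The labels call the samples biological replicates but do not say whether they came from separate animals. The p-values therefore set a difference against the spread between these libraries only. Under the block described below, that spread is what remains after the column number is fitted. Summed CPM of the 7 Treg markers ran from 3486 to 4267, and the genotypes overlapped. Of the 7, Il2ra, Ctla4 and Ikzf2 fell in Exon2KO without the block (edgeR adjusted p = 0.0429, 0.00677 and 0.0240). The other 4, Foxp3, Cd4, Cd5 and Cd3e, had log2 fold changes above 0, from 0.016 for Cd3e to 0.22 for Cd4, and were not called. Marker sums of other cells were small but not even. The 6 myeloid markers summed to 53.3 and 71.6 CPM in the libraries numbered 20 and to 18.1 to 25.9 in the other 4, with Cd14 at 0 in 3 libraries. They also summed lower in Exon2KO than in WT at every number, at 19.2 against 23.8, 18.1 against 25.9 and 53.3 against 71.6 CPM. Of the 5 that could be tested, all 5 had a log2 fold change below 0 without the block. Lyz2 fell under the block (-0.40, edgeR adjusted p = 0.0413). In all 3 pairs 4 of the 5 were lower in Exon2KO. The exception, S100a8, differed by 0.28, 0.65 and -0.64 at numbers 2, 6 and 20, with a blocked log2 fold change of -0.03. The 7 erythroid markers summed to 3.49 and 5.87 CPM in the libraries numbered 20 and to 9.95 to 17.6 in the others. The 8 B and plasma cell markers summed to 45.7 to 63.5 CPM in WT and 36.3 to 44.3 in Exon2KO, where Jchain and Cd79b, 2 of the 7 that could be tested, fell under the same block. The 5 CD8 T and NK cell markers summed to 32.3 CPM in Exon2KO 6 and to 13.5 to 16.1 in the others. Gzmk alone made up 21.8 CPM of that sum in Exon2KO 6, and Cd8b1 was at its lowest there, at 7.18 CPM. The part of these markers in the results on replication genes was not tested. The table counts whole genes, which cannot check the loss of Foxp3 exon 2: its counts for Foxp3 ran from 10934 to 15997 in WT and from 13336 to 16437 in Exon2KO.

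Per length, the clamp and 5 of the 6 helicase ring subunits stood highest. As CPM per kilobase of the deposited gene length, the WT level of Pcna was 91.7 ± 15.9 (SD, n = 3), followed by Mcm6 at 39.6 ± 7.56 and by Mcm4, Mcm5, Mcm7 and Mcm3 at means of 27.7 to 34.2. Mcm2, the remaining ring subunit, was at 16.1 and ranked 11 of 38, behind E2f2, Dut, Rrm2 and Pold1 as well. The lowest level per length was that of Orc1, a subunit of the origin recognition complex, at 1.31 ± 0.558. Its WT range overlapped that of Fen1, the next gene, at a mean of 1.57. Orc1, Fen1 and Mcm7 each overlap a gene on the opposite strand, so their levels are uncertain. The range of Pcna over the WT libraries did not overlap that of Mcm6, whereas the neighbours from Mcm4 to Mcm3 overlapped.

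**Figure D1:**
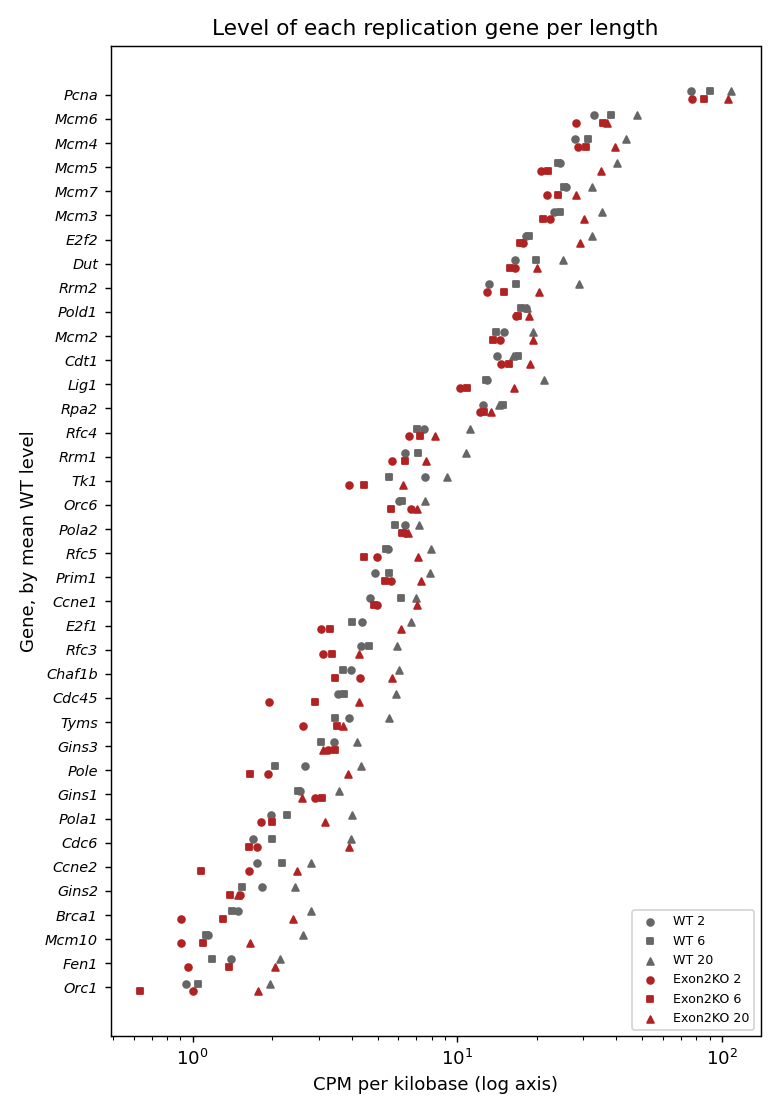
CPM per kilobase of gene length (log axis) of the 38 replication genes in each of the 6 libraries, ordered by mean WT level; grey marks are WT, red marks are Exon2KO, and the marker shape gives the column number. Pcna is the highest gene and Orc1 the lowest in WT, and in most rows the triangles of the libraries numbered 20 lie farthest to the right.

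The plain comparison of genotypes called 0 of the 38 genes at an adjusted p under 0.05, by edgeR's quasi-likelihood test over 3 and 3 libraries. Of all tested genes, it called 2.33%. Only Rfc3 and Tk1 had an unadjusted p under 0.05, a count of 2 of 38 (5.26%) beside 12.1% of all tested genes. DESeq2 and limma-voom also called 0 of the 38, and in the authors' deposited table the smallest adjusted p of a replication gene was 0.0690, for Tk1. The log2 fold changes ran from -0.61 for Tk1 to 0.05 for Cdt1, with a median of -0.19 beside 0.0084 for all tested genes. The groups did not overlap for 2 genes, Rfc3 and Gins2, both lower in Exon2KO, that is 2 of 38 beside 9.32% of all tested genes. Gins2 overlaps a gene with more counts on the opposite strand, given below.

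The libraries numbered 20 were high in both genotypes, and leaving out 1 of the pair kept that number in only 1 genotype of the plain comparison. Without WT 20 the median was 0.059 and 14 genes were below 0. With each of the other 5 libraries left out in turn it stayed below 0, from -0.10 to -0.41. Without both libraries numbered 20, the plain comparison gave a median of -0.15, with 31 genes below 0 and 0 called.

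**Figure D2:**
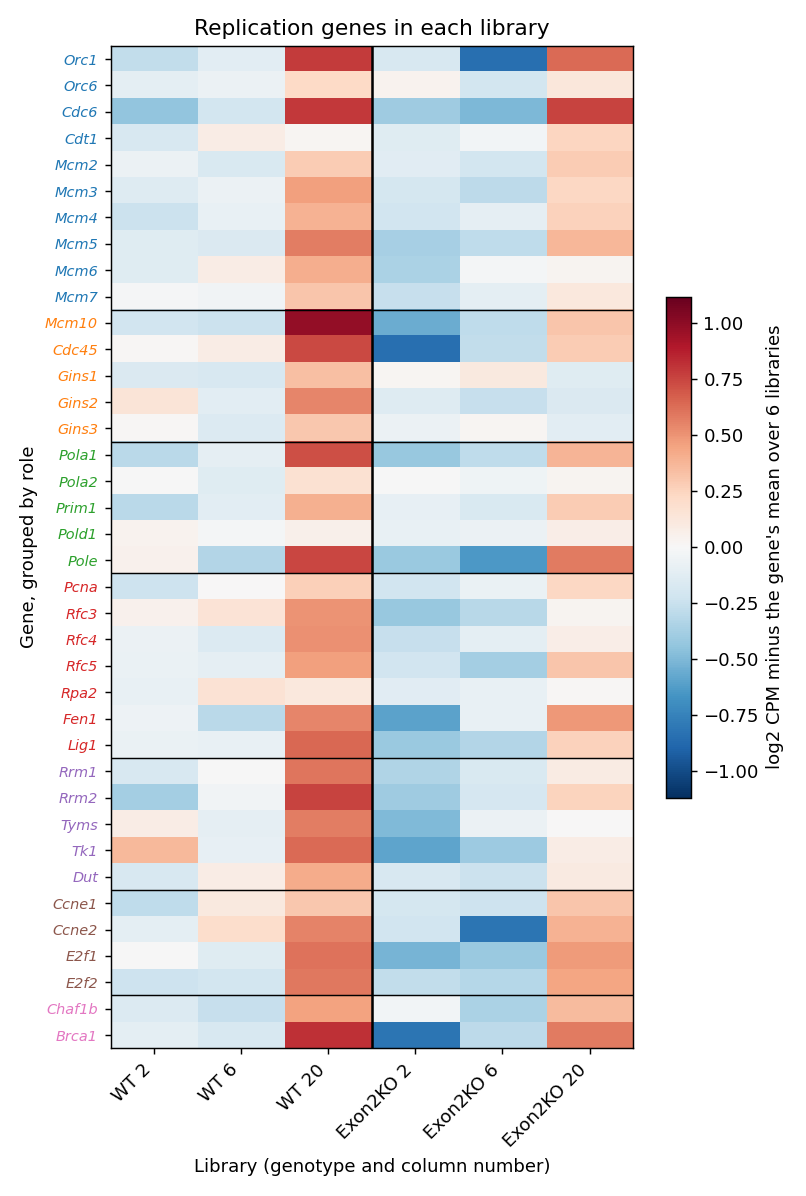
Level of the 38 replication genes in each library, as log2 CPM minus the gene's mean over the 6 libraries, with genes grouped by role and coloured from blue (below the mean) to red (above). The columns of WT 20 and Exon2KO 20 are the reddest of their genotypes, and the mean log2 CPM over the genes is 5.30 in WT 20 and 5.05 in Exon2KO 20.

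Within a number, Exon2KO stood below WT for most genes. With the column number as a block in the edgeR fit, 7 of 38 genes (18.4%) fell and 0 rose, beside 5.79% of all tested genes called lower. An unadjusted p under 0.05 was reached by 18 genes, beside 21.5% of all tested genes. The median log2 fold change with the block was -0.19, the same as without it. The pair differences had medians of -0.11, -0.13 and -0.18 at numbers 2, 6 and 20, with 26, 32 and 34 of 38 genes lower in Exon2KO. In all 3 pairs, 20 genes (52.6%) were lower in Exon2KO, beside 20.9% of all tested genes, and 0 were higher in all 3. The number of calls changed with the pairs kept. Without both libraries numbered 2 the block fit called 0 replication genes by edgeR, with 9 at an unadjusted p under 0.05, beside 15.1% of all tested genes. That fit of 4 libraries called 1.14% of all tested genes lower, and the median of the replication genes in it was -0.19, with Rfc3 at -0.47 and Lig1 at -0.32. Without both numbered 20 it called 1, Tk1 (2.63%), beside 3.45% of all tested genes called lower. Without both numbered 6 it called 8 (21.1%), among them Mcm10 and Tyms, beside 5.96%. DESeq2 with the same block called 2 genes, Lig1 and Tk1 (5.26%), beside 4.04%. The shares without pair 20 and with DESeq2 were near those of all tested genes.

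**Figure D3:**
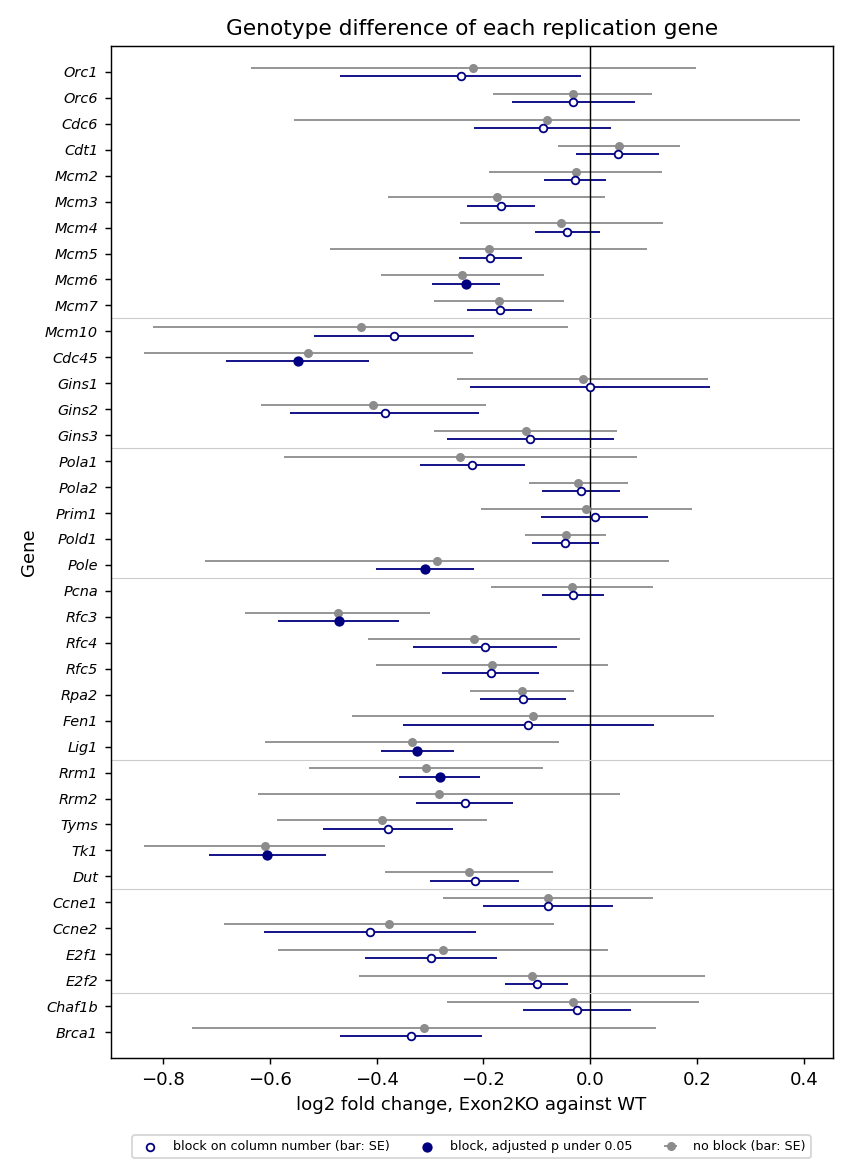
Log2 fold change of Exon2KO against WT for each replication gene, with bars of 1 standard error: grey without the block, blue with the block on the column number, and filled blue where the blocked adjusted p is under 0.05. The blue bars are shorter than the grey ones for most genes, and the 7 filled points all lie left of 0.

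Among the 10 licensing genes, 9 had a log2 fold change below 0 (median -0.13) and 1, Mcm6, fell under the block. That share, 10%, lay near the 5.79% of all tested genes called lower. Mcm6, a subunit of the helicase ring (ENSMUSG00000026355, chr1:128331590-128359664, minus strand, mm10), was at 153, 178 and 223 CPM in WT 2, 6 and 20 and at 132, 166 and 172 CPM in Exon2KO 2, 6 and 20. Each Exon2KO library was below its WT partner, but the groups overlapped. Mcm6 means were 185 ± 35.3 and 156 ± 21.8 CPM (SD, n = 3), and the blocked edgeR log2 fold change was -0.23 ± 0.064 (SE, adjusted p = 0.0307). The other ring subunits did not pass: their blocked adjusted p ran from 0.0625 for Mcm5 to 0.843 for Mcm2, with edgeR log2 fold changes between -0.19 and -0.03. The loaders Cdc6 and Cdt1 had log2 fold changes of -0.08 and 0.05, and the origin recognition subunits Orc1 and Orc6 had -0.22 and -0.03. Differences among the 6 ring subunits were not tested.

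The start sites of several of these genes carry the E2F motif, shown here because E2F factors control the program. The motif was searched on both strands as TTTCCCGC, TTTGGCGC, TTTCGCGC and TTTGCCGC in windows from 250 bases before to 50 bases after each RefSeq start site (GRCm38.p6). Windows were found for 33 of the 38 genes, not for Mcm4, Gins1, Gins2, Ccne2 and Pole. A match was found in 13 of the 33 (39.4%), beside 2.6% of all 27025 genes and 4.76% of the tested genes with a window. Counted by window, 13 of the 38 windows of these genes held a match (34.2%), beside 2.26% of all 32851 windows. The printed stretches are the 170 bases before the RefSeq start of the 3 genes with a match there whose stretch lies outside the gene span of the deposited table. They read 5′ to 3′ on the gene's strand, with matched bases in capitals. Those of Mcm5 (chr8:75109339-75109508, plus strand) and Mcm6 (chr1:128359706-128359875, minus strand) each hold overlapping matches on both strands that form 1 run of capitals, and Mcm6 holds another match nearer to its start. That of Pola1 (chrX:93632156-93632325, minus strand), the catalytic subunit of the polymerase that makes primers, holds 1 match, on the other strand.
Mcm5: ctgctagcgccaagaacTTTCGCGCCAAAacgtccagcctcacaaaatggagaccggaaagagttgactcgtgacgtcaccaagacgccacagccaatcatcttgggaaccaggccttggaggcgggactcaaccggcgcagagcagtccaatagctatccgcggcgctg
Mcm6: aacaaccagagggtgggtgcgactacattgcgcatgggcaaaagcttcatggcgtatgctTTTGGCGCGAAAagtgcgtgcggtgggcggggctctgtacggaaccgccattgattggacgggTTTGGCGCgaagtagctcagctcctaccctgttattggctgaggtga
Pola1: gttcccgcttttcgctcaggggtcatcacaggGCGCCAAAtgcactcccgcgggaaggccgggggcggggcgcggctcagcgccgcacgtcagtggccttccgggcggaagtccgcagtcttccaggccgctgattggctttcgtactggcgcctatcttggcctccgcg
The genes with a match had a median log2 fold change of -0.17 (n = 13) and those without one -0.20 (n = 20). Under the block 3 of the 13 and 3 of the 20 were called, beside 5.79% of all tested genes called lower. Without both libraries numbered 2 the block called 0 of the 38 genes, beside 1.14%. A match is a description of letters and not a bound site.

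Of the 5 helicase activation genes, all had log2 fold changes below 0 (median -0.41) and 1, Cdc45, fell under the block. In so small a group 1 call is 20%, beside 5.79% of all tested genes called lower. Cdc45, which joins the Mcm ring at the start of S phase (ENSMUSG00000000028, chr16:18780447-18811987, minus strand), was at 12.4, 13.1 and 20.6 CPM in WT 2, 6 and 20 and at 6.84, 10.2 and 15.0 CPM in Exon2KO 2, 6 and 20. Every Exon2KO library was below its partner, and the groups overlapped. The Cdc45 means were 15.3 ± 4.53 and 10.7 ± 4.09 CPM, and the blocked log2 fold change was -0.55 ± 0.13 (edgeR adjusted p = 0.0161). Cdc45 overlaps Ufd1 on the opposite strand, which had 7080 counts over all libraries beside 1493 for Cdc45. Whether the counting used strand is not given in the sources used here, so the level of Cdc45 is uncertain. Mcm10, a factor that helps to activate the helicase, and Gins2 had log2 fold changes of -0.43 and -0.41 and did not pass, with blocked edgeR adjusted p of 0.159 and 0.220. Gins2 overlaps Gse1 on the opposite strand, which had 12377 counts beside 796 for Gins2. Gse1 rose in Exon2KO under the block (0.23, edgeR adjusted p = 0.026), so the level of Gins2 is uncertain too. Gins1 and Gins3, the other GINS subunits listed, were at -0.01 and -0.12.

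Among the 5 polymerase and primase genes, the median log2 fold change was -0.046 and 1, Pole, fell under the block. Here too 1 call is 20%, beside 5.79% of all tested genes called lower. Pole, the catalytic subunit of the leading-strand polymerase epsilon (ENSMUSG00000007080, chr5:110286306-110337474, plus strand), was at 29.7, 22.9 and 48.3 CPM in WT 2, 6 and 20 and at 21.6, 18.4 and 43.0 CPM in Exon2KO 2, 6 and 20. The spread between numbers was wider than the gap within each. The Pole means were 33.6 ± 13.1 and 27.7 ± 13.4 CPM, with a blocked log2 fold change of -0.31 ± 0.092 (edgeR adjusted p = 0.0456) beside an SE of 0.43 without the block. Pold1, the catalytic subunit of polymerase delta, ran from 81.2 to 90.8 CPM over all 6 libraries. Pola1 had a log2 fold change of -0.24, the accessory subunit Pola2 -0.02 and the primase Prim1 -0.01, and none of the 3 passed under the block.

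Of the 7 clamp, clamp loader, single-strand binding and Okazaki fragment genes, 2 fell under the block, Rfc3 and Lig1 (group median -0.18). That is 28.6%, beside 5.79% of all tested genes called lower. Rfc3, a subunit of the loader that opens the Pcna ring (ENSMUSG00000033970, chr5:151642756-151651242, minus strand), was at 15.6, 16.8 and 21.4 CPM in WT 2, 6 and 20 and at 11.2, 12.2 and 15.4 CPM in Exon2KO 2, 6 and 20. All 3 WT libraries were above all 3 Exon2KO libraries. Its pair differences were -0.47, -0.46 and -0.47 on the log2 scale. The Rfc3 means were 17.9 ± 3.04 and 12.9 ± 2.17 CPM, with a blocked log2 fold change of -0.47 ± 0.11 (edgeR adjusted p = 0.0137, and 0.271 without the block). Lig1, the ligase that seals Okazaki fragments (ENSMUSG00000056394, chr7:13277283-13311433, plus strand), was at 55.4, 55.0 and 91.0 CPM in WT 2, 6 and 20 and at 43.7, 46.4 and 69.9 CPM in Exon2KO 2, 6 and 20. The pairs all pointed down while the groups overlapped, through Exon2KO 20. The Lig1 means were 67.2 ± 20.7 and 53.3 ± 14.4 CPM, with a blocked log2 fold change of -0.32 ± 0.068 (edgeR adjusted p = 0.00590). Pcna itself did not pass: it was at 184, 217 and 260 CPM in WT 2, 6 and 20 and at 186, 205 and 254 CPM in Exon2KO 2, 6 and 20, so partners lay close together at every number. The loader subunits Rfc4 and Rfc5 had log2 fold changes of -0.22 and -0.18, the single-strand binding subunit Rpa2 -0.13 and the flap nuclease Fen1 -0.11, with blocked edgeR adjusted p from 0.250 to 0.845.

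The 5 nucleotide supply genes all had log2 fold changes below 0 (median -0.31). All 5 had a blocked unadjusted p under 0.05, which 21.5% of all tested genes had. After adjustment 2 passed, Tk1 and Rrm1 (40%), beside 5.79% of all tested genes called lower. Tk1, the thymidine kinase of the salvage route (ENSMUSG00000025574, chr11:117815526-117826092, minus strand), was at 39.3, 28.7 and 47.5 CPM in WT 2, 6 and 20 and at 20.3, 23.0 and 32.4 CPM in Exon2KO 2, 6 and 20. Only WT 6 lay within the Exon2KO range. The Tk1 means were 38.5 ± 9.44 and 25.3 ± 6.34 CPM, with a blocked log2 fold change of -0.60 ± 0.11 (edgeR adjusted p = 0.00262, and 0.310 without the block). Tk1 overlaps Afmid on the opposite strand, which had 1245 counts beside 3656 for Tk1 and a log2 fold change of -0.40 (blocked edgeR adjusted p = 0.0908), so the split of reads between them is uncertain. Rrm1, the large subunit of ribonucleotide reductase (ENSMUSG00000030978, chr7:102441695-102469771, plus strand), was at 69.6, 78.3 and 119 CPM in WT 2, 6 and 20 and at 62.3, 70.0 and 83.6 CPM in Exon2KO 2, 6 and 20. The gap was widest at number 20. The Rrm1 means were 89.0 ± 26.4 and 72.0 ± 10.8 CPM, with a blocked log2 fold change of -0.28 ± 0.076 (edgeR adjusted p = 0.0295). The small reductase subunit Rrm2 had a log2 fold change of -0.28, thymidylate synthase Tyms -0.39 and the dUTPase Dut -0.23, with blocked edgeR adjusted p of 0.136, 0.0696 and 0.130.

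**Figure D4:**
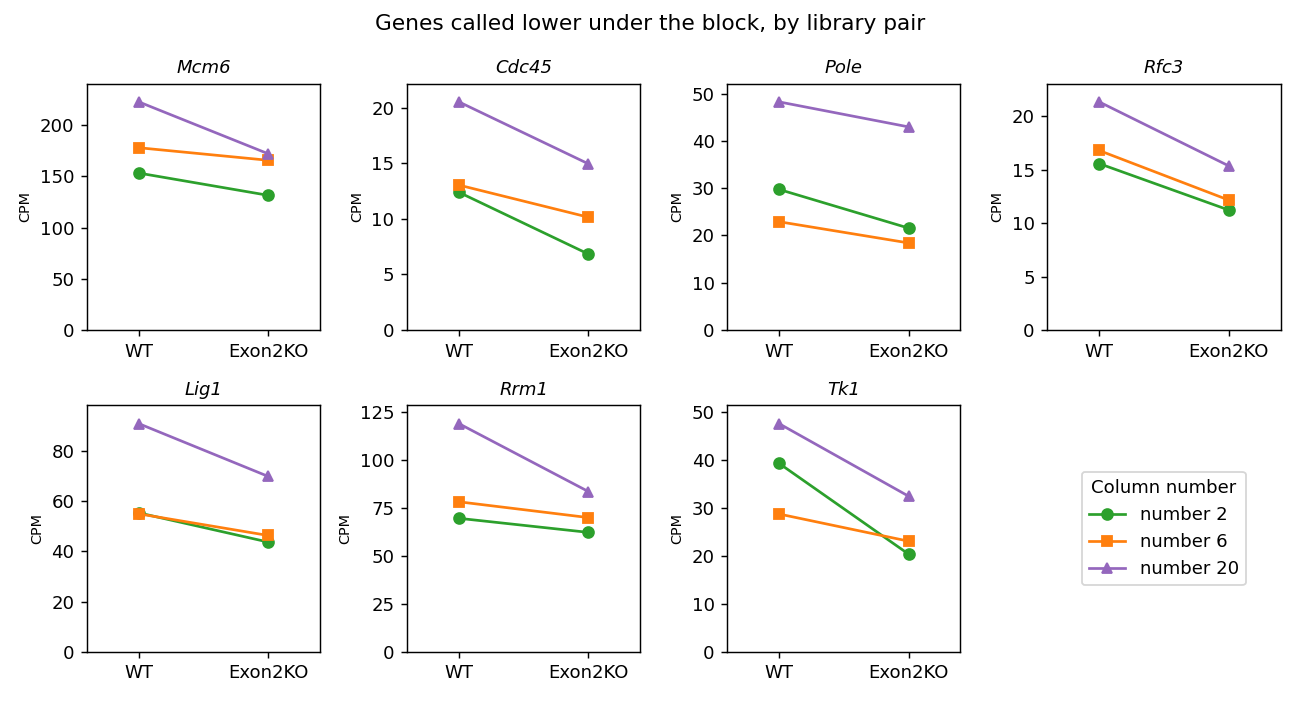
CPM of the 7 genes that fell under the block, in WT and Exon2KO, with 1 line for each pair of libraries of the same column number. Every line slopes down from WT to Exon2KO, and the line of number 20 lies highest in every panel.

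None of the 4 G1/S cyclin and E2F genes passed (median -0.19). Ccne1 and Ccne2, the cyclins that drive S-phase entry with Cdk2, had log2 fold changes of -0.08 and -0.38, and the transcription factors E2f1 and E2f2 had -0.28 and -0.11, with blocked edgeR adjusted p from 0.164 to 0.786. Of the remaining 2 genes, the histone chaperone subunit Chaf1b was at -0.03 and the repair factor Brca1 at -0.31, and neither passed. In all, 11 of the 38 genes overlap a gene on the opposite strand that has at least 10% of their counts, among them Cdc45, Lig1, Tk1, Gins2 and Rfc4.

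Between the column numbers, 24 of the 38 genes (63.2%) differed in edgeR's quasi-likelihood F test with the genotype in the fit, beside 10.4% of all tested genes. In each of the 24 library 20 was the highest of its genotype in both genotypes. Over the whole list, 33 of 38 genes (86.8%) were highest in library 20 of both genotypes, beside 20.1% of all tested genes. The exceptions were Cdt1, Gins1, Gins2, Gins3 and Rpa2. The median excess of library 20 over the mean of libraries 2 and 6 was 0.56 in WT and 0.46 in Exon2KO on the log2 scale, beside 0.008 and 0.000 for all tested genes, while library 6 minus library 2 had medians of 0.009 and 0.087. Each number is 1 library of each genotype, and no label says what a number stands for. With WT 2 left out the count fell to 9, beside 1.92% of all tested genes, and with Exon2KO 2 left out to 15, beside 3.51%. Without WT 20 it was 17, beside 7.61%, and without Exon2KO 20 it was 16, beside 5.29%. The myeloid and erythroid markers also moved with number 20, as given above, and their part was not tested.

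The 5 genes with the smallest adjusted p between numbers, picked after their values were seen, were E2f2, Mcm5, Pole, Lig1 and Cdc6, and the CPM of Pole and Lig1 are given above (edgeR adjusted p = 1.18e-05 and 3.91e-05). E2f2, an activating E2F factor, was at 89.2, 90.9 and 157 CPM in WT 2, 6 and 20 and at 86.6, 84.2 and 142 CPM in Exon2KO 2, 6 and 20 (edgeR adjusted p = 2.86e-06). Mcm5 was at 97.8, 96.0 and 160 CPM in WT and at 83.0, 88.2 and 139 CPM in Exon2KO, in the same order (edgeR adjusted p = 6.27e-06). In both genes the libraries numbered 2 and 6 were close together and those numbered 20 stood apart. Cdc6, the licensing ATPase that is made anew for each cycle, was at 8.86, 10.5 and 20.8 CPM in WT and at 9.17, 8.52 and 20.4 CPM in Exon2KO (edgeR adjusted p = 8.39e-05). Its excess in library 20 was 1.10 in WT and 1.20 in Exon2KO on the log2 scale, whereas that of Mcm10 was 1.20 and 0.72. For Gins1 and Gins3 the excess was 0.49 and 0.36 in WT and -0.20 and -0.10 in Exon2KO. A difference between genotypes in this excess was tested by edgeR's quasi-likelihood test of the interaction of genotype with number 20 against the other numbers, a test added after seeing the data. It called 0 of the 38 genes, with 0 at an unadjusted p under 0.05, beside 0.0067% and 3.04% of all tested genes. No other tool was run on it. The fit has few residual degrees of freedom, and a p that misses the threshold does not show that the excesses were equal.

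**Figure D5:**
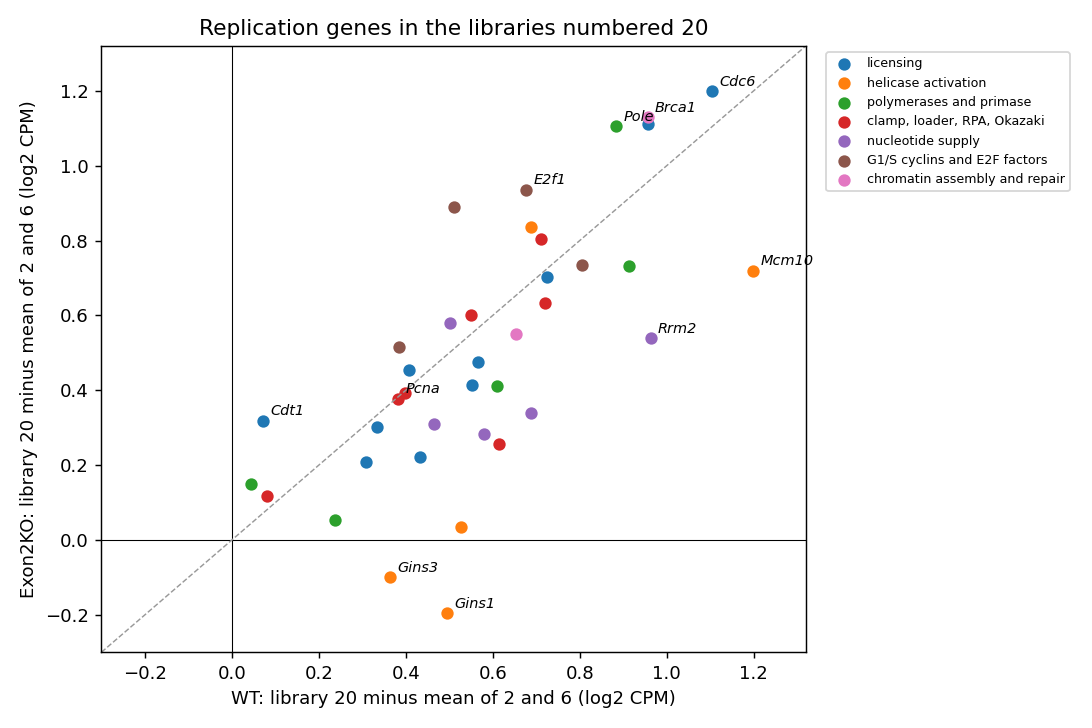
Excess of library 20 over the mean of libraries 2 and 6 (log2 CPM) in WT (horizontal) and Exon2KO (vertical), 1 point per replication gene coloured by role, with the dashed line marking equal excess. All but 2 points, Gins1 and Gins3, lie above 0 on both axes.

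Other genes of the pathway were read the same way. Of 56 further replication and S-phase genes, all tested, 39 had a log2 fold change below 0 (69.6%, median -0.059). That stood beside 37 of the 38 described here and 48.2% of all tested genes. The plain edgeR comparison called 0 of the 56, beside 2.33% of all tested genes, and DESeq2 also called 0. In that edgeR fit 1 had an unadjusted p under 0.05 (1.79%), beside 12.1% of all tested genes. Under the block 6 fell (10.7%), beside 5.79% of all tested genes, and 0 rose. In the block fit without both libraries numbered 2, 0 of the 56 were called by edgeR, beside 1.14% of all tested genes called lower. An unadjusted p under 0.05 was reached there by 13, beside 15.1% of all tested genes. The block fit without both numbered 20 also called 0 of the 56, beside 3.45% called lower. Among the 6 were Chaf1a at -0.41, the partner of Chaf1b (edgeR adjusted p = 0.0229), Rad51ap1 at -0.61 (0.0250), the checkpoint mediator Clspn at -0.41 (0.0307) and Uhrf1 at -0.24 (0.0425), a reader of hemimethylated DNA. Between the numbers, 26 of the 56 differed (46.4%), beside 10.4% of all tested genes.

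Among 29 genes of G1/S control, 26 were tested and Cdkn2a, Cdkn2b and Skp2 were not. The block fit called 5 of the 26 (19.2%), beside 9.72% of all tested genes in either direction. The inhibitor Cdkn2d rose by 0.46 and the retinoblastoma gene Rb1 by 0.34 on the log2 scale (edgeR adjusted p = 0.00090 and 0.0025). The E2F partner Tfdp1 and the retinoblastoma relative Rbl2 each fell, at -0.33 and -0.32 (0.0042 and 0.0073), and cyclin A2 (Ccna2) fell, at -0.37 (0.0338). Without the block 0 were called by edgeR, beside 2.33% of all tested genes, with 3 (11.5%) at an unadjusted p under 0.05, beside 12.1%. The block fit without both libraries numbered 2 also called 0, beside 1.83% of all tested genes. In it 7 had an unadjusted p under 0.05, beside 15.1%.

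The 24 mitosis genes, another group of the cell cycle, had a median log2 fold change of -0.40, with 23 below 0. The block fit called 13 lower (54.2%), beside 5.79% of all tested genes, led by Cenpf, Ccnb1, Top2a, Bub1b and Mki67. Without both libraries numbered 2 it called 0 of the 24 by edgeR, beside 1.14% of all tested genes called lower. An unadjusted p under 0.05 was reached there by 19, beside 15.1% of all tested genes. Between numbers 22 differed (91.7%), beside 10.4%, and the median excess of library 20 was 1.01 in WT and 0.56 in Exon2KO. These values lie beside -0.19, 7 of 38, 0.56 and 0.46 for the replication genes, and the difference between the lists was not tested.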

How the data were processed

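RNA of 6 libraries was sequenced. The authors deposited 1 table with raw counts per gene, gene lengths in bases and, per the file headers, their own comparison of Exon2KO with WT. Another 6 columns of values per library were not used. The submitters' processing notes list HISAT2 2.0.5, StringTie 1.3.3b, featureCounts 1.5.0-p3, DESeq2 1.16.1 and mm10, without saying what each was used for, and the strand setting is not given in the sources used here. The deposited comparison holds group means as scaled count signal (not used), log2 fold changes and each p-value before and after adjustment. Only 1 adjusted p of it is quoted. Levels were compared between genes as CPM per kilobase of deposited length.

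The counts, as deposited, were tested with edgeR 4.0.16 in R 4.3.3 (filterByExpr, TMM, robust quasi-likelihood fit, two-sided, Benjamini-Hochberg over the 14919 tested genes, called at an adjusted p under 0.05). The SE is the absolute log2 fold change divided by the square root of F. Pair differences and library 20 excesses are differences of log2 CPM with a prior count of 2. Alternatives were the block, left-out libraries and pairs, other count filters and scalings, DESeq2 1.42.0 and limma-voom (limma 3.58.1).

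Columns could be assigned to a genotype by name but not to a titled sample. The numbers 2, 6 and 20 occur once per genotype in the column names. Deviations from the genotype means correlated within each number (r = 0.271, 0.369 and 0.494 across genes, which are not independent). Same-numbered libraries were therefore treated as pairs in the block, an alternative to the plain comparison. The correlations came from the counts that were then tested, and none was computed between different numbers. No label says that the libraries are pairs. The common coefficient of biological variation fell from 17.3% to 8.56% with the block. Libraries of 1 genotype differed beyond sampling noise (chi-square per degree of freedom 8.66 to 26.4), so none was counted as a duplicate. The replication genes and gene lists were chosen with earlier results of these data known. Per-library values were printed for genes called with or without the block, and up to 5 called genes of each other list were named, apart from items that are not reported here.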

Additional observations from a re-analysis of the deposited data

How the results depend on the processing

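With the replicate block on the column number, calls rose from 348 to 1450 of all tested genes, from 0 to 7 replication genes, and from 0 to 6, 5 and 13 of the other replication, G1/S control and mitosis lists. The block without both libraries numbered 2 called 277 of all tested genes and 0 of each of these 4 lists. The block without both libraries numbered 6 called 1441 of all tested genes and 8, 4, 8 and 16 of these 4 lists in turn. The block without both numbered 20 called 900 of all genes and 1, 0, 2 and 2 of these 4 lists in turn. DESeq2 with the block called 1027 of all genes and 2, 1, 4 and 7 of the lists. Without the block, all tested genes called numbered 2 without pair 2, 46 without pair 6, 617 without a count filter, 667 with DESeq2 and 86 to 314 with 1 library left out, and no replication gene was called in any of the unblocked fits run. The median log2 fold change of the replication genes kept its sign in every fit run except without WT 20, and ran from -0.41 to 0.059 with 1 library left out. The count of replication genes that differed between numbers, 24, ran from 9 to 27 with 1 library left out, alternatives chosen after seeing the data. The causes of these shifts were not tested.

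Some log2 fold changes of single genes turned sign. Of the 7 genes called with the block Pole did so, without WT 20, and the other 6 stayed below 0 but moved over the unblocked fits with 1 library left out. Those ranges were Tk1 -0.83 to -0.43, Lig1 -0.58 to -0.051, Rfc3 -0.62 to -0.33, Cdc45 -0.86 to -0.26, Rrm1 -0.46 to -0.040 and Mcm6 -0.36 to -0.083, each with its value nearest 0 without WT 20. The genes that turned sign were, with the block, Prim1 0.0079. Without pair 2 it was Fen1 0.070 with the block and 0.041 without it. Without pair 6 and with the block they were Orc6 0.017, Prim1 0.029, Ccne1 0.042 and Chaf1b 0.0035, and without the block Orc6 0.010, Prim1 0.0066 and Ccne1 0.036. Without pair 20 and with the block they were Orc6 0.0027, Cdt1 -0.035, Mcm4 0.0030, Gins1 0.24, Gins3 0.046, Pola2 0.044, Prim1 0.077 and Chaf1b 0.011, and without the block Orc6 0.0062, Cdt1 -0.038, Mcm4 0.0023, Gins1 0.24, Gins3 0.045, Pola2 0.042, Prim1 0.075 and Chaf1b 0.016. With DESeq2 and the block they were Gins1 0.0030 and Prim1 0.011. With 1 library left out, 24 genes turned sign, over these ranges: Orc1 -0.69 to 0.19, Orc6 -0.11 to 0.078, Cdc6 -0.61 to 0.39, Cdt1 -0.064 to 0.12, Mcm2 -0.20 to 0.12, Mcm3 -0.36 to 0.040, Mcm4 -0.21 to 0.15, Mcm5 -0.47 to 0.094, Mcm10 -0.72 to 0.096, Gins1 -0.10 to 0.18, Gins3 -0.22 to 0.012, Pola1 -0.54 to 0.13, Pola2 -0.089 to 0.060, Prim1 -0.16 to 0.23, Pole -0.76 to 0.068, Pcna -0.18 to 0.10, Rfc4 -0.34 to 0.021, Rfc5 -0.42 to 0.025, Fen1 -0.43 to 0.18, Rrm2 -0.51 to 0.11, Ccne1 -0.28 to 0.057, E2f2 -0.40 to 0.21, Chaf1b -0.24 to 0.22 and Brca1 -0.79 to 0.087. In all, 24 of the 38 genes turned sign in at least 1 fit and 14 in none.

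With 3 libraries per genotype and 1 per genotype and number, few samples support each estimate. Counts cover whole genes, so overlapping genes and the strand of reads limit 11 of the 38 values.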
